A study of Homo sapiens with 4 samples.

Results

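The ZNF genes described here are the genes whose symbol is ZNF followed by a number, with or without a final letter, and whose mean over the 4 libraries of the study was above 5 FPKM, a level in which the fragments of a gene are divided by the length of its transcript and by the size of the library. They were thus chosen by their symbol and their mean level, and not by their change. The deposited table listed 57979 genes, of which 559 carried such a symbol and 135 passed this level. All 135 also entered the comparison of knockout with wild type, which was run over the 13246 genes with a mean above 1 FPKM. Both conditions were labelled HepG2, a human liver cancer line, and differed in the genotype label alone, which was wild type for 2 libraries and TXNDC9-KO for the other 2. Per the study's methods, TXNDC9 was targeted by CRISPR-Cas9 with guides against the first exon, cloned in the lentiviral plasmid lentiCRISPRv2, and infected cells were sorted. Whether the knockout cells were 1 clone or a pool and which guide each library carried were not given in the sources used here. A supplementary legend of the study mentions independent RNA-seq experiments, but their number is not that of the libraries analysed here, so how the 2 libraries of a condition relate is not given in the sources used here. The p-values therefore measure only the spread between these libraries, which may be technical.

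Most human genes with a ZNF symbol encode proteins with C2H2 zinc fingers, in which a pair of cysteines and a pair of histidines hold a zinc ion and the residues between them read DNA or RNA. Many of these proteins carry a KRAB box, a short domain that recruits the corepressor TRIM28 and, through it, the histone methyltransferase SETDB1, and they are best known for silencing transposable elements. KRAB genes arose by repeated tandem duplication and stand in clusters, many of them on chromosome 19. Others carry a SCAN domain, with which the proteins pair, or no such domain, and among these are activators, corepressor subunits and proteins that act on ribosomes or RNA.

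Of the 135 genes, 133 had a protein in the canonical transcripts of GENCODE release 44 and 2 were pseudogenes, ZNF271P and ZNF252P. A KRAB box was found in 55 proteins, a SCAN domain without a KRAB box in 5, and neither in 73. The 135 genes lay on 19 chromosomes, and 43 of them lay on chromosome 19. The genes held up to 36 fingers, with a median of 8, and no finger was matched in 3 proteins. Their mean levels ran from 5.10 to 99.5 FPKM with a median of 9.09, 73 of them were under 10 FPKM and 7 were above 50 FPKM.

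Over all genes the FPKM values added up to 805816 and 971102 for wild type but only to 535973 and 568279 for the knockout, and no sequencing depth is known. Libraries of one condition correlated at 0.976 (wild type) and 0.980 (knockout) on the log2 scale over 13246 genes, against 0.859 to 0.897 between conditions. TXNDC9 itself stood at 35.1 and 37.3 FPKM in wild type and at 21.9 and 27.6 FPKM in the knockout, a log2 fold change of -0.55 ± 0.14 (SE) with an adjusted p of 0.0145 by limma, which missed the threshold used here and turned to 0.12 with the libraries set to one common sum. Small changes in an exon need not alter the level of a transcript, so this is a weak check of the labels. The hepatocyte and hepatoma markers ALB, AFP, APOA1, APOB, TTR, SERPINA1, FGB and HNF4A were at or near 0 in every library and together reached no more than 0.716 FPKM. Of 8 markers of other cells, VIM (774 and 908 FPKM in wild type, 364 and 379 FPKM in the knockout) and COL1A1 (31.5 and 22.8 FPKM, then 20.7 and 17.5 FPKM) were well above 0 and the other 6 stayed at or under 0.261 FPKM. The markers thus went against the HepG2 label, and the cells are called by their label below without a cell type being drawn from it. VIM was lower in the knockout, and what part this has in the results was not tested.

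As a whole the ZNF genes moved both ways. A gene was called when limma's adjusted p, by Benjamini-Hochberg over the 13246 genes, was under 0.01 and the change was at least 2-fold. By that rule 25 ZNF genes (18.5%) rose in the knockout, against 14.2% of all genes tested, and 20 (14.8%) fell, against 15.3% of all genes tested. The calls had adjusted p-values from 0.000486 to 0.00272 for the rises and from 0.000512 to 0.00412 for the falls. Of the 90 ZNF genes that were not called, 22 were higher and 15 lower with an adjusted p under 0.01 but by less than 2-fold, and 53 had an adjusted p of at least 0.01. Both knockout values lay above both wild-type values in 64 genes, or 47.4% against 40.1% of all genes tested, and below them in 52, or 38.5% against 45.9% of all genes tested, and the groups overlapped in 19. The median log2 fold change of the ZNF genes was 0.11, beside -0.088 over all genes tested. All genes tested include those under 5 FPKM. With the comparison limited to the 9593 genes with a mean above 5 FPKM, 1220 genes rose and 1704 fell, with a median of -0.18. Of the ZNF genes, 25 then rose and 21 fell. For a single gene, the exact permutation test of 2 libraries against 2 cannot go below p = 0.333, so all calls rest on the spread that limma shares between genes.

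The rule that chose the genes used the mean of all 4 libraries, and a gene could pass it through 1 condition. Both condition means were above 5 FPKM in 96 genes, of which 8 (8.33%) rose and 19 (19.8%) fell, with a median log2 fold change of -0.078. Beside them stand 14.2% higher and 15.3% lower among all genes tested, which were not limited in this way. Only the knockout mean was above 5 FPKM in 31 genes, of which 17 rose, and only the wild-type mean in 8 genes, of which 1 (ZNF653) fell. These 39 genes had to differ in that direction, and their counts are a description.

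The base composition of the finger coding sequence varied widely among the ZNF genes. To show its range, the first finger matched in 5 AT-rich genes that rose and in 3 GC-rich genes that fell is printed from the plus or minus strand of hg38 that encodes it, 5′ to 3′, with the codons of the zinc-binding cysteines and histidines in capitals.
ZNF770: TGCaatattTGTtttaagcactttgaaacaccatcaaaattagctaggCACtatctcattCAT
ZNF493: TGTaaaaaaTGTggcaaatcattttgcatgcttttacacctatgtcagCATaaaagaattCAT
ZNF217: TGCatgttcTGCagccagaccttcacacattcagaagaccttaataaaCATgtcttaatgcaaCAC
ZNF561: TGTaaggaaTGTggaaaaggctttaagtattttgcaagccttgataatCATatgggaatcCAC
ZNF562: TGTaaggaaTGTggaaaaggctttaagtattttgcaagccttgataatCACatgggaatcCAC
ZNF787: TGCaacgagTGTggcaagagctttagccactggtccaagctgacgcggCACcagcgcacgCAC
ZNF358: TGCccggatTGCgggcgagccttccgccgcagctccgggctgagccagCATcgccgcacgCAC
ZNF205: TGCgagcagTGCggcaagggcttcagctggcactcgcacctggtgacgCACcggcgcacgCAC

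These fingers lie at chr15:34983288-34983350 (ZNF770), chr19:21423209-21423271 (ZNF493), chr20:53582563-53582628 (ZNF217), chr19:9611004-9611066 (ZNF561), chr19:9653552-9653614 (ZNF562), chr19:56088908-56088970 (ZNF787), chr19:7519699-7519761 (ZNF358) and chr16:3119588-3119650 (ZNF205), each within coding sequence. The fingers of ZNF561 and ZNF562, neighbours on chromosome 19, were identical at 62 of 63 bases. The fingers of the 5 genes that rose were 30.2% to 40.9% GC, and those of the 3 that fell were 61.9% to 74.6% GC. These 8 were picked as examples after their values were seen. Over all fingers of each protein, the median GC content was 42.9% in the 25 genes that rose (34.0% to 57.4%) and 61.2% in the 19 of the 20 genes that fell with a matched finger (37.7% to 73.4%), beside 47.2% over the 130 ZNF proteins with a finger. The ranges overlapped, and among the large falls ZNF593 (55.1%), ZNF652 (45.9%) and ZNF638 (37.7%) were not as GC-rich as the 3 shown.

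Among the genes that rose, ZNF770 stood apart. ZNF770, a protein of 10 fingers without a KRAB box (ENSG00000198146, chr15:34978341-34988287, minus strand), was at 1.85 and 0.715 FPKM in wild type and at 19.6 and 20.4 FPKM in the knockout. Its log2 fold change was 3.996 ± 0.39 (SE), with an adjusted p of 0.000710. The wild-type values differed more from each other than the knockout values did, and leaving out a wild-type library moved the log2 fold change between 3.37 and 4.62. The next member was ZNF106, a zinc finger protein that binds RNA. It was at 4.97 and 4.92 FPKM in wild type and at 22.2 and 22.3 FPKM in the knockout (log2 fold change 2.15 ± 0.10). Both ZNF770 and ZNF106 were above 5 FPKM only in the knockout and so had to be higher there.

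**Figure D1:**
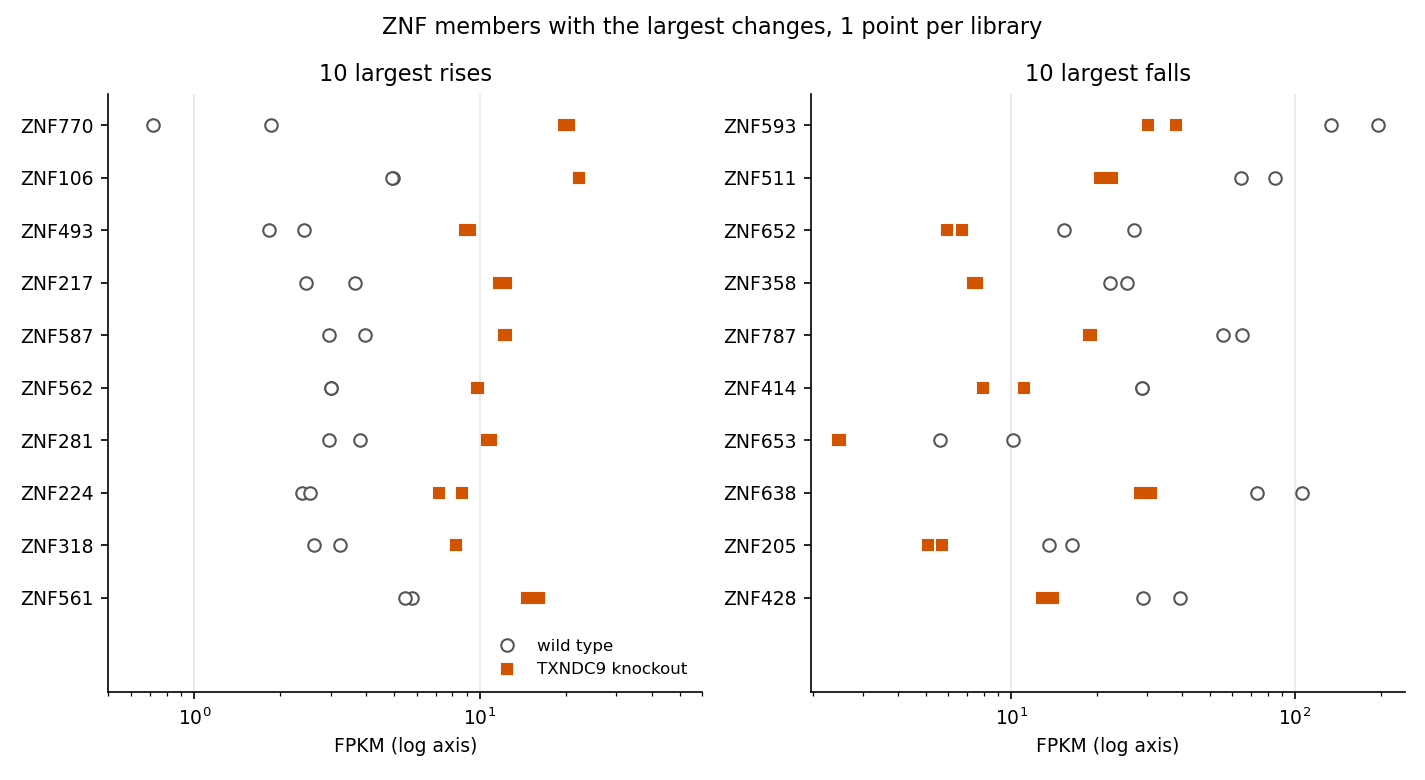
FPKM on a log axis in each of the 2 wild-type libraries (open circles) and 2 TXNDC9 knockout libraries (squares), for the 10 ZNF genes with the largest rises (left) and the 10 with the largest falls (right). The genes were picked for groups that do not overlap, and ZNF770 shows the widest gap, from at most 1.85 to at least 19.6 FPKM. All rises shown but ZNF561 were above a mean of 5 FPKM only in the knockout and so had to be higher there. Among the falls, ZNF653 was above it only in wild type and had to be lower in the knockout.

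KRAB genes of chromosome 19 made up 5 of the 10 largest rises. ZNF493 was at 1.83 and 2.42 FPKM in wild type and at 9.19 and 8.85 FPKM in the knockout (log2 fold change 2.05 ± 0.17). ZNF587 was at 3.95 and 2.95 FPKM and then at 12.1 and 12.3 FPKM (1.81 ± 0.16), although 24.6% of the 50-base stretches of its transcript also occur in transcripts of other genes. ZNF224, a KRAB repressor first described at the aldolase A promoter, was at 2.39 and 2.54 FPKM and then at 7.21 and 8.63 FPKM (1.64 ± 0.15). The groups were apart in all 3 genes. The wild-type level was under 5 FPKM in each, so all 3 had to be higher in the knockout. The neighbours ZNF562 and ZNF561, whose fingers are printed above, rose together. ZNF562 was at 3.004 and 3.013 FPKM in wild type and at 9.84 and 9.79 FPKM in the knockout (1.67 ± 0.12). It was above 5 FPKM only in the knockout and so had to be higher there. ZNF561 was at 5.78 and 5.46 FPKM and then at 16.02 and 14.6 FPKM (1.43 ± 0.11). Their transcripts shared only 4.11% and 6.83% of 50-base stretches with those of other genes.

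The other large rises were in genes without a KRAB box. ZNF217, an oncogene product that works with CtBP and CoREST corepressors, was at 3.65 and 2.46 FPKM in wild type and at 12.3 and 11.7 FPKM in the knockout (1.96 ± 0.20). ZNF281, a regulator of GC-rich promoters known from epithelial-mesenchymal transition, was at 3.80 and 2.95 FPKM and then at 10.6 and 10.9 FPKM (1.65 ± 0.16). ZNF318, a nuclear cofactor of the androgen receptor, was at 3.25 and 2.63 FPKM and then at 8.24 and 8.22 FPKM (1.46 ± 0.15). In these 3 genes the lowest knockout value was more than 2 times the highest wild-type value, and all wild-type values were under 5 FPKM. They thus passed the limit only through the knockout and had to be higher there. The remaining 15 rises, which include ZNF148, ZNF24, ZNF451 and ZNF227 described below, had log2 fold changes from 1.09 (ZNF664) to 1.42 (ZNF142).

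The largest fall was in the most abundant ZNF gene. ZNF593 (ENSG00000142684, chr1:26169908-26170873, plus strand) encodes a small protein with 1 finger whose yeast homologue accompanies the large ribosomal subunit out of the nucleus. It was at 134 and 196 FPKM in wild type and at 30.2 and 38.04 FPKM in the knockout, a log2 fold change of -2.25 ± 0.21 with an adjusted p of 0.000664. Its canonical transcript, with 638 nt, was the shortest of all ZNF genes described here, and its exons overlap those of ZNF593OS on the other strand. ZNF511 was at 64.6 and 84.8 FPKM in wild type and at 22.6 and 20.5 FPKM in the knockout (-1.78 ± 0.15). The readthrough gene ZNF511-PRAP1 shares its exons, and 44.3% of its 50-base stretches were not unique.

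Of the 10 largest falls, 5 were in genes of chromosome 19 without a KRAB box. ZNF358 was at 22.3 and 25.5 FPKM in wild type and at 7.36 and 7.56 FPKM in the knockout (-1.66 ± 0.11). ZNF787 was at 56.0 and 65.0 FPKM and then at 18.8 and 19.1 FPKM (-1.66 ± 0.11). ZNF414 was at 28.8 FPKM in each wild-type library, and its knockout values were 7.96 and 11.1 FPKM (-1.61 ± 0.17). All 3 genes are compact and GC-rich, with transcripts of 1940 to 2307 nt. ZNF653 was at 5.62 and 10.1 FPKM in wild type and at 2.45 and 2.49 FPKM in the knockout (-1.57 ± 0.28), and ZNF428 was at 29.1 and 39.3 FPKM and then at 14.1 and 12.9 FPKM (-1.32 ± 0.16). The only KRAB gene that fell was ZNF205 on chromosome 16, at 13.6 and 16.3 FPKM in wild type and at 5.10 and 5.73 FPKM in the knockout (-1.45 ± 0.14).

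A pair of long, AT-rich genes fell as well, which set them apart from the compact genes above. ZNF652, a repressor that works with the corepressor CBFA2T3, was at 15.4 and 27.1 FPKM in wild type and at 6.71 and 5.96 FPKM in the knockout (-1.68 ± 0.26), from a transcript of 11628 nt with 40.7% GC. ZNF638, a nuclear protein linked to RNA processing and to silencing of unintegrated retroviral DNA, was at 73.6 and 105.9 FPKM and then at 31.2 and 28.5 FPKM (-1.56 ± 0.19), from a transcript of 6487 nt with 39.6% GC. Both genes fell more after the correction for length and GC content given below, to -2.76 and -2.44. The 10 other falls had log2 fold changes from -1.32 (ZNF703) to -1.01 (ZNF771).

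After ZNF593, the ZNF genes with the highest mean level were ZNF207, ZNF195, ZNF622, ZNF638, ZNF131, ZNF692 and ZNF511. ZNF207, also known as BuGZ, loads the checkpoint protein BUB3 onto kinetochores. It was at 79.4 and 64.6 FPKM in wild type and at 123 and 129 FPKM in the knockout, and its log2 fold change of 0.81 ± 0.14 (adjusted p 0.00328) stayed under 2-fold and turned to -0.42 after the correction for length and GC content. ZNF195, a KRAB gene, was at 74.0 and 70.4 FPKM and then at 95.2 and 96.7 FPKM (0.41 ± 0.10, adjusted p 0.0139). ZNF131, a protein with a BTB domain, was at 55.2 and 72.9 FPKM and then at 51.1 and 47.7 FPKM (-0.36 ± 0.16, adjusted p 0.0852). ZNF692 fell, from 70.2 and 82.0 FPKM to 31.5 and 33.3 FPKM (-1.23 ± 0.12). Of these 8 most abundant genes, 4 fell and none rose, and the other 4 were not called. The shares over all genes tested were 15.3% lower and 14.2% higher.

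A short list of ZNF genes that act on ribosomes or RNA held ZNF593, ZNF622, ZNF598, ZNF326 and ZNF346. Of these 2 fell and none rose, beside 15.3% lower and 14.2% higher among all genes tested. The list leaves out ZNF106 and ZNF638, described above, which are also linked to RNA and of which the first rose and the other fell. ZNF622, whose yeast homologue acts late in maturation of the large ribosomal subunit, was at 87.8 and 101.4 FPKM in wild type and at 50.9 and 54.7 FPKM in the knockout. Its log2 fold change of -0.84 ± 0.12 (adjusted p 0.00191) stayed under 2-fold. ZNF598, the ubiquitin ligase that marks collided ribosomes, was at 55.3 and 59.2 FPKM and then at 22.7 and 24.1 FPKM (-1.29 ± 0.10, adjusted p 0.000538). Its groups did not overlap, but the change was under 2-fold after the correction (-0.65) and in TPM (-0.61). The 2 RNA-binding proteins of the list were not called. ZNF326, which links transcript elongation to splicing, was at 22.4 and 20.3 FPKM in wild type and at 26.6 and 26.7 FPKM in the knockout (0.32 ± 0.10), and turned to -0.84 after the correction. ZNF346, which binds double-stranded RNA, was at 13.8 and 12.8 FPKM and then at 12.8 and 12.5 FPKM (-0.070 ± 0.10), with overlapping groups.

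Of 10 activators and chromatin partners, 3 rose (ZNF217, ZNF281 and ZNF148) and 1 fell (ZNF638), beside 14.2% higher and 15.3% lower among all genes tested. The 3 that rose had wild-type means of 3.05, 3.37 and 3.34 FPKM, in that order. They were above 5 FPKM only in the knockout and so had to be higher there. ZNF148, a regulator of GC-rich promoters related to ZNF281, was at 3.30 and 3.38 FPKM in wild type and at 8.05 and 8.34 FPKM in the knockout (1.27 ± 0.12), a change that shrank to 0.090 after the correction. ZNF143, an activator that binds many promoters, was at 7.48 and 9.72 FPKM and then at 9.05 and 9.41 FPKM (0.11 ± 0.15), with overlapping groups. The other members were not called either. ZNF687 and ZNF592, which bind chromatin together with ZMYND8, had log2 fold changes of -0.11 ± 0.10 and 0.29 ± 0.10. ZNF644, a partner of the methyltransferase G9a, was at 17.8 and 17.9 FPKM and then at 14.6 and 14.5 FPKM (-0.29 ± 0.10), and it was called lower only after the correction (-1.19). ZNF335, a subunit of a histone methyltransferase complex, was at 6.28 and 5.90 FPKM and then at 5.71 and 6.42 FPKM (-0.0079 ± 0.13), and ZNF219, a transcription factor, was at 27.2 and 25.5 FPKM and then at 14.3 and 14.8 FPKM (-0.85 ± 0.10, adjusted p 0.00106).

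Of the listed repressors with a KRAB box or SCAN domain, 3 reached 5 FPKM and 1 rose, beside 14.2% higher among all genes tested. ZNF274, a KRAB protein that recruits SETDB1 to the ends of other zinc finger genes, was at 12.1 and 10.4 FPKM in wild type and at 13.4 and 12.4 FPKM in the knockout (0.20 ± 0.12, adjusted p 0.192). ZNF263 was at 10.4 and 9.94 FPKM and then at 14.0 and 13.9 FPKM (0.45 ± 0.10, adjusted p 0.00913), and 49.1% of its 50-base stretches were shared with overlapping transcripts. ZNF24, a SCAN protein with a long 3′ UTR of 5005 nt, rose from 7.39 and 7.62 FPKM to 16.9 and 17.8 FPKM (1.20 ± 0.10), and was at 0.28 and no longer called after the correction. Besides ZNF207, the list of mitosis and SUMO genes held ZNF451, a ligase for the small modifier SUMO, which rose from 7.96 and 7.02 FPKM to 16.1 and 18.2 FPKM (1.19 ± 0.12) and likewise lost its call after the correction (0.38).

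Set by domain, 12 of the 55 KRAB genes rose and 1 fell, with a median log2 fold change of 0.32. Of the 78 genes with a protein but no KRAB box, 13 (16.7%) rose and 19 (24.4%) fell, with a median of -0.039. A SCAN domain was found in 10 proteins, 5 of them with a KRAB box, and of these 1 rose (ZNF24) and 1 fell (ZNF444). The contrast between KRAB and other genes was widest on chromosome 19. There 11 of 27 KRAB genes (40.7%) rose and none fell, with a median log2 fold change of 0.57. Of the 16 genes without a KRAB box on chromosome 19, 1 rose (ZNF714) and 9 (56.2%) fell, with a median of -1.09. Of the 11 KRAB genes that rose, 10 were above 5 FPKM only in the knockout and so had to be higher there. What part the limit has in the size of these rises was not tested. Of the 15 KRAB genes of chromosome 19 above 5 FPKM in both conditions 1 rose (ZNF561), with a median of 0.15, and of the 15 others 1 rose and 8 fell, with a median of -1.09. On the other chromosomes 1 of 28 KRAB genes rose (ZNF33A) and 1 fell (ZNF205), with a median of -0.0070. Of the 62 genes without a KRAB box there, 12 (19.4%) rose and 10 (16.1%) fell, near the shares over all genes, with a median of 0.12. Among these 12 rises, 7 were in genes above 5 FPKM only in the knockout. These groups also differed in make. The KRAB genes of chromosome 19 had a median transcript of 3993 nt with 42.8% GC, and the other genes of that chromosome 2230.5 nt with 64.0% GC, beside 2866.5 nt and 48.5% over all genes tested. The part that length and base composition had in this contrast was not tested by itself. After both were corrected for, the medians on chromosome 19 were 0.33 and -0.19. There were then 6 rises and 2 falls among the KRAB genes and no call among the others. Over all genes with a length, 6.41% were then called higher and 7.39% lower. All 6 rises were in genes above 5 FPKM only in the knockout, and over the genes above it in both conditions the corrected medians were -0.13 for KRAB genes and -0.16 for the others.

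**Figure D2:**
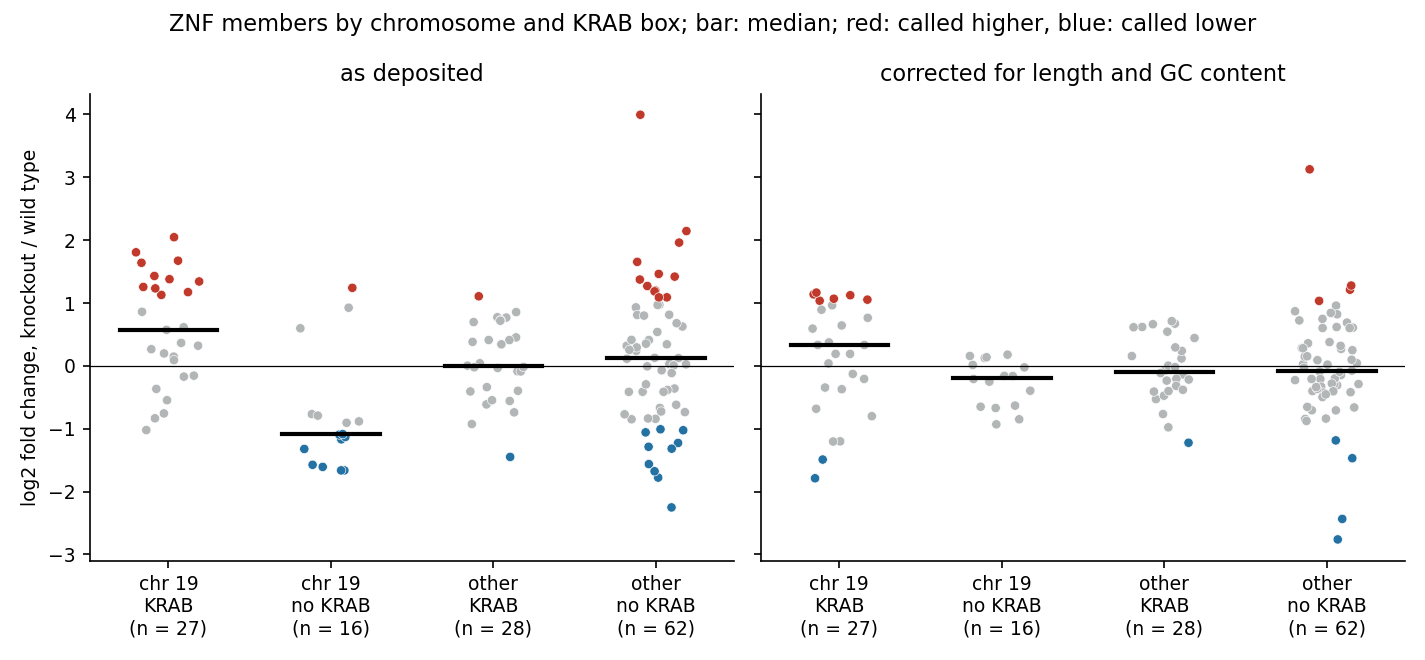
log2 fold change of knockout over wild type for the 133 ZNF genes with a protein, split by chromosome 19 or other and by KRAB box, from the deposited values (left) and after correction for transcript length and GC content (right). Each point is 1 gene, the bar is the median, and the gap on chromosome 19 on the left, 0.57 against -1.09, is narrower on the right, 0.33 against -0.19. Of the 11 KRAB genes of chromosome 19 called higher on the left, 10 were above 5 FPKM only in the knockout.

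Along chromosome 19 there were 5 clusters of at least 3 ZNF genes, of which 2 held log2 fold changes of 1 sign and 3 were mixed. From 21082159 to 21427577 stood ZNF714, ZNF431, ZNF738 and ZNF493, and all 4 rose, with log2 fold changes of 1.23 to 2.05. The share called higher over all genes tested was 14.2%. ZNF714 was at 5.87 and 5.33 FPKM in wild type and at 14.1 and 12.7 FPKM in the knockout. ZNF431, which has the longest transcript of all ZNF genes described here, was at 4.70 and 3.18 FPKM and then at 9.44 and 9.30 FPKM. ZNF738 was at 3.50 and 4.18 FPKM and then at 9.92 and 8.39 FPKM, with 28.0% of its 50-base stretches shared. The 4 transcripts share 5.32% to 28.0% of their 50-base stretches with other genes, so the counting may have split such reads. All but ZNF714 were above 5 FPKM only in the knockout. After the correction only ZNF493 of the 4 was still called (1.17).

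The stretch from 55576774 to 56160893 held 7 ZNF genes without a KRAB box, and in all 7 both knockout values lay below both wild-type values. Over all genes tested, both lay below in 45.9%, and 15.3% were called lower. Of these ZNF787, ZNF444, ZNF581 and ZNF865 fell, and ZNF579, ZNF524 and ZNF580 were under 2-fold, with log2 fold changes from -1.66 to -0.79 in all. ZNF444, a SCAN protein, was at 32.0 and 34.4 FPKM in wild type and at 14.4 and 15.1 FPKM in the knockout. ZNF580 was the most abundant of those not called, at 46.6 and 53.0 FPKM and then at 25.2 and 27.8 FPKM. After the correction none of the 7 was called, and ZNF524 (0.16) and ZNF580 (0.13) were above 0. A like stretch on chromosome 16, from 30407414 to 31074240, held ZNF771, ZNF768, ZNF689 and ZNF668, of which all but ZNF689 fell. With the correction ZNF771 (-0.21), ZNF768 (-0.29) and ZNF668 (-0.28) were no longer called.

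The other 3 clusters of chromosome 19 were mixed. Shares called over all genes tested were 14.2% higher and 15.3% lower. From 9140397 to 9675100 on chromosome 19, ZNF561 and ZNF562 rose, ZNF266 and ZNF121 were under 2-fold at 0.86 and 0.93, and ZNF317 was at 14.2 and 24.8 FPKM in wild type and at 8.66 and 9.76 FPKM in the knockout, the only ZNF gene with a 2-fold difference that missed the p threshold (-1.02). From 43596392 to 44305046, the KRAB genes ZNF45, ZNF224 and ZNF227 rose, ZNF226 and ZNF235 were not called, and ZNF576 and ZNF428, which have no KRAB box, fell. In the last cluster of the chromosome, from 57435325 to 58431736, ZNF587 rose and the other 5 genes were not called. Of the genes that rose in these 3 clusters, all but ZNF561 were above 5 FPKM only in the knockout and so had to be higher there. The 4 KRAB genes ZNF282, ZNF212, ZNF777 and ZNF746 of chromosome 7 (149195546 to 149497817) held no call, with log2 fold changes from -0.93 to -0.023.

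**Figure D3:**
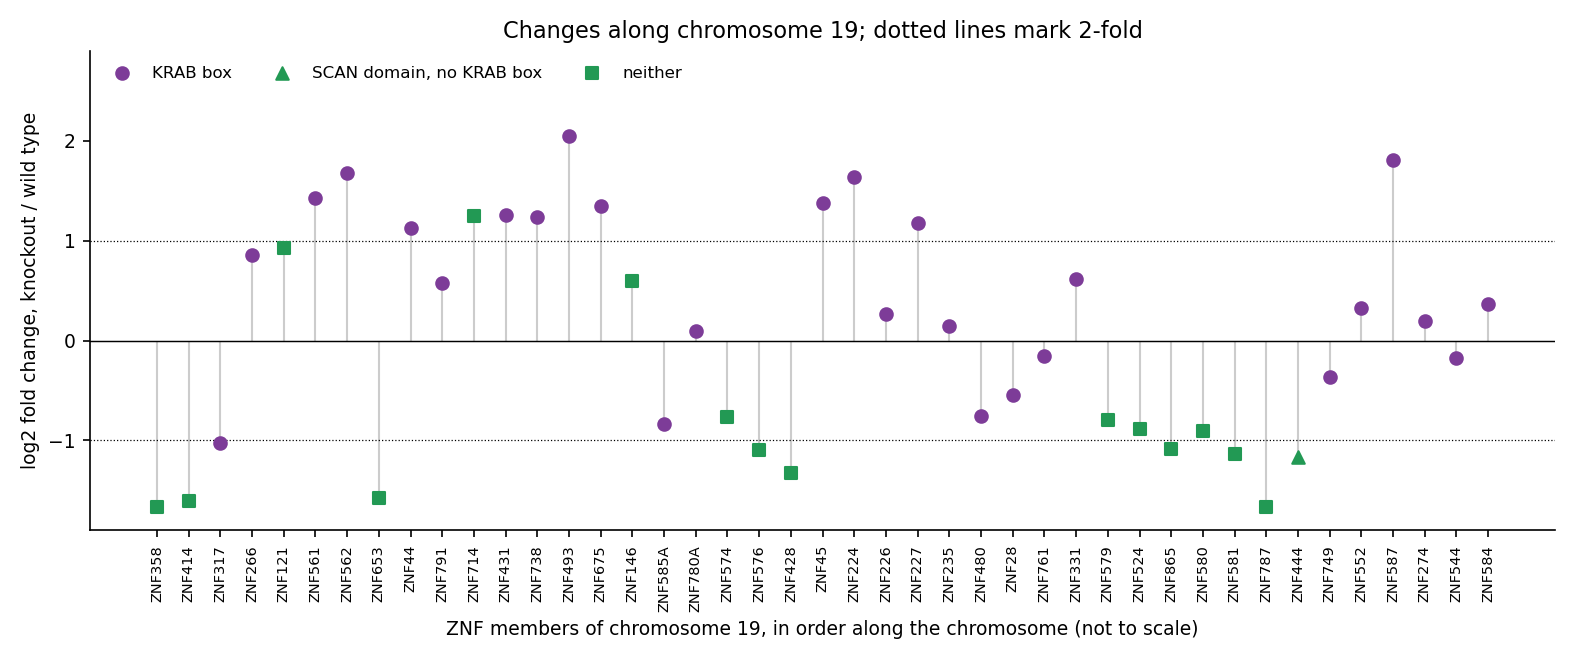
log2 fold change of knockout over wild type for the 43 ZNF genes of chromosome 19 in their order along the chromosome, with circles for KRAB genes, a triangle for a SCAN gene and squares for genes with neither. The runs ZNF714 to ZNF493 and ZNF579 to ZNF444 lie above and below 0 throughout, while the other clusters hold values on both sides.

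The change of a ZNF gene went with the length and base composition of its transcript, and also with its mean level. The genes that rose had a median canonical transcript of 5790 nt with 42.6% GC and a 3′ UTR of 2871 nt, and those that fell had 2111.5 nt, 63.3% GC and a 3′ UTR of 464.5 nt. Of the 25 genes that rose, 17 were above 5 FPKM only in the knockout and so had to be higher there. What part this has in the pattern was not tested. Of the 45 shortest transcripts 15 fell and 2 rose (ZNF675 and ZNF44), and of the 45 longest 17 rose and 2 fell (ZNF652 and ZNF638). Across the 135 genes, which are not independent replicates and share the 4 libraries, Spearman's rho of the log2 fold change was 0.57 with transcript length and -0.57 with GC content. Over all genes tested with a length, the values were 0.49 and -0.46. With the mean level, rho was -0.41 over the ZNF genes and -0.29 over all genes tested. After the correction for length and GC content given below, rho with the mean level was -0.35 over the ZNF genes and -0.28 over all genes. Over the ZNF genes it was then 0.11 with length and -0.046 with GC content. The number of fingers went along less closely, with a rho of 0.20, and of the 45 genes with the most fingers 13 rose and 3 fell. Among all genes tested 14.2% rose and 15.3% fell. Between the 2 wild-type libraries, where the genotype was the same, rho with length was -0.28 over the ZNF genes, and between the 2 knockout libraries it was -0.096.

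**Figure D4:**
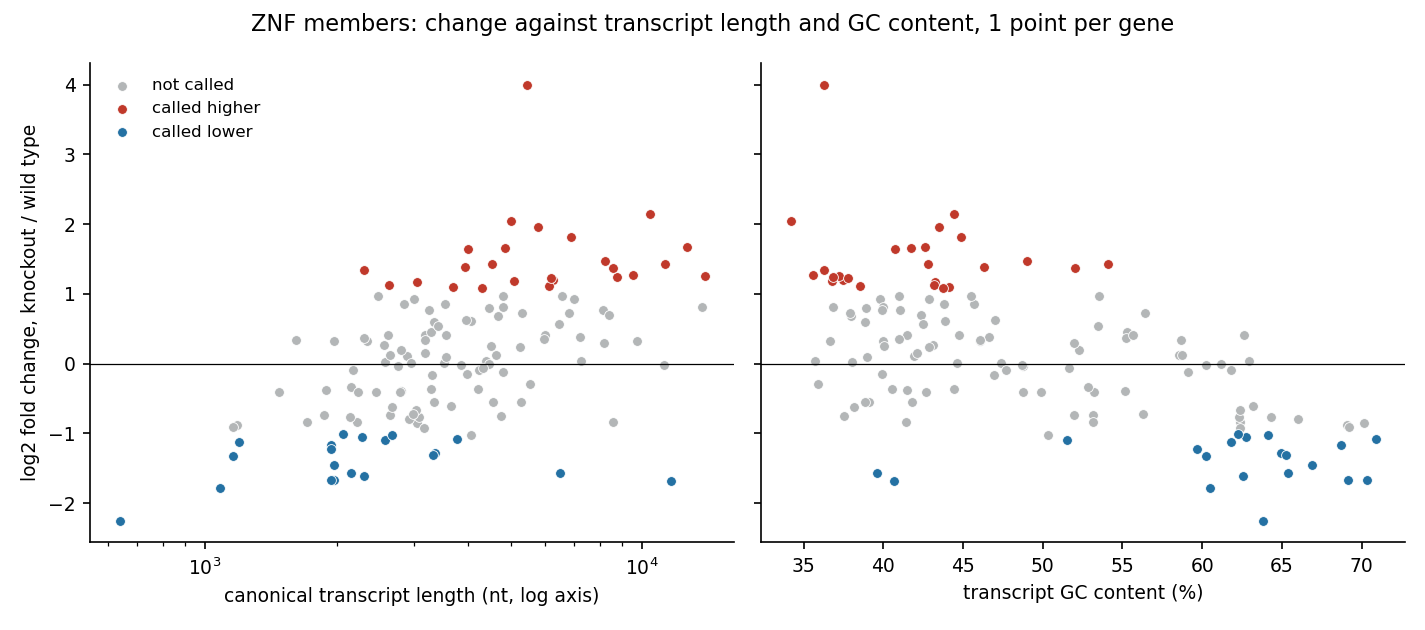
log2 fold change of knockout over wild type for the 135 ZNF genes against canonical transcript length in nt on a log axis (left) and transcript GC content in percent (right), with 1 point for each gene coloured by its call. Calls of higher level gather at long and AT-rich transcripts (median 5790 nt, 42.6% GC) and calls of lower level at short and GC-rich ones (median 2111.5 nt, 63.3% GC), with ZNF652 and ZNF638 as the 2 long genes that fell. Of the 25 genes called higher, 17 were above 5 FPKM only in the knockout.

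When each library was corrected for a smooth dependence on length and GC content, 10 ZNF genes were called higher, against 6.41% of the 13112 genes with a length, and 7 lower, against 7.39%. All 10 were above 5 FPKM only in the knockout, so their number is a description, and of the 96 genes above 5 FPKM in both conditions none was called higher and 6 were called lower. The 10 were all among the 25 above and were ZNF770 (3.13), ZNF217 (1.28), ZNF106 (1.21), ZNF493 (1.17), ZNF224 (1.14), ZNF675 (1.12), ZNF587 (1.07), ZNF45 (1.05), ZNF44 (1.04) and ZNF281 (1.03). The 3 kept falls were ZNF652, ZNF638 and ZNF593 (-1.47), and 4 genes were called lower only then, namely ZNF585A (-1.79), ZNF480 (-1.49), ZNF286A (-1.22) and ZNF644. No gene was called in the opposite direction. With every library set to one common sum instead (TPM), the median of all genes moved from -0.088 to 0.59, and 56 ZNF genes were then higher and 3 lower (33.1% and 3.37% of all genes). The rises made up 94.9% of the calls on that scale and 55.6% on the deposited one, and over all genes the shares were 90.7% and 48.3%. Leaving out either knockout library left no call at any gene, while at an unadjusted p under 0.05 there were 27 ZNF genes at least 2-fold higher and 20 lower without replicate 1, and 25 higher and 23 lower without replicate 2.

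The summed level of the 135 genes came to 2108 and 2354 FPKM in wild type but to 1858 and 1925 FPKM in the knockout. As a share of the FPKM of all genes it was 0.262% and 0.242% in wild type but 0.347% and 0.339% in the knockout, so the direction of the sum depended on the scale. The median level of a ZNF gene stood at 7.80 and 8.24 FPKM in wild type and at 9.44 and 9.48 FPKM in the knockout. These levels are a description, since 31 genes passed the limit only through the knockout and 8 only through wild type. Over the 96 genes above 5 FPKM in both conditions, the median log2 fold change was -0.078.

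The genes at the edge of the 5 FPKM limit are given as a description. Just inside it, ZNF227 was at 3.57 and 2.66 FPKM in wild type and at 6.70 and 7.47 FPKM in the knockout, ZNF200 at 4.17 and 2.88 and then at 6.32 and 7.11 FPKM, and ZNF689 at 4.74 and 4.10 and then at 5.63 and 6.16 FPKM. Just outside it, ZNF609 was at 2.61 and 2.72 FPKM and then at 7.001 and 6.994 FPKM, ZNF528 at 4.72 and 5.19 and then at 4.09 and 5.61 FPKM, and ZNF283 at 2.83 and 3.70 and then at 7.07 and 6.11 FPKM. Of the 187 ZNF genes at or below the limit that were tested, 41 were called higher and 2 lower, and the median log2 fold change was 0.55. Among all genes tested, which include those above 5 FPKM, 14.2% were higher and 15.3% lower. No share was taken over genes of a like level alone. After the correction 10 were higher and 1 lower, and the median was 0.25.

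The promoters of the ZNF genes were read from RefSeq (GRCh38.p14, 250 bases before to 50 bases after the start of each gene), which held 114 of the 135 genes. They were searched on both strands for the E-box CACGTG, which MYC binds, for the letters CCGGAAG of ETS factors, AAGATGGC of YY1 and ACTACAA of ZNF143, and for the palindrome TCTCGCGA. A palindromic stretch can match once on each strand, and matches of different motifs can overlap. The ETS letters stood in 42 ZNF promoters (36.8%), against 10.7% of all 27305 promoters and 20.5% of the 9007 promoters of genes tested. The E-box stood in 6.14%, against 7.43% of all promoters and 10.6% of those of genes tested. The YY1 letters stood in 7.89%, against 3.03% and 5.87%, the ZNF143 letters in 8.77%, against 2.95% and 4.03%, and the palindrome in 2.63%, against 1.19% and 2.62%. By call, the ETS letters stood in 25% of 24 promoters of genes that rose, 36.8% of 19 of genes that fell and 40.8% of 71 of genes not called. The YY1 letters stood in 4 of the 24, in none of the 19 and in 5 of the 71. The E-box stood in 2 of the 24, in 1 of the 19 and in 4 of the 71.

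The stretches below, each of 30 bases on the strand of the gene, show the ETS letters in capitals in 3 genes that fell (ZNF593, ZNF787 and ZNF638), in ZNF493, which rose, and in the abundant ZNF195. They also show the YY1 letters in the neighbours ZNF561 and ZNF562, which rose together, and in ZNF207. Capitals that read CTTCCGG or GCCATCTT are matches on the other strand. Only 1 match is marked in each stretch. The ZNF787 promoter held 3 matches, and its stretch holds another that overlaps the marked one. The ZNF593 stretch ends in the E-box letters, left in small letters.
ZNF593: agctgatcggcCCGGAAGtgctcacacgtg
ZNF787: cgtcctagacaCTTCCGGaagtggctccct
ZNF638: cgggagcgcccCTTCCGGgagcccgctccg
ZNF493: ggcgaggacggCTTCCGGgatgtggctggg
ZNF195: ggagaggacggCTTCCGGgatctagcgggg
ZNF561: agcgcaccaccGCCATCTTttccggcgctg
ZNF562: agtgtgccaccGCCATCTTtaccggctgtg
ZNF207: ctgaaacggacAAGATGGCtgccacctctt

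In that order the stretches lie at chr1:26169904-26169933, chr19:56121445-56121474, chr2:71331645-71331674, chr19:21397101-21397130, chr11:3379168-3379197, chr19:9621219-9621248, chr19:9675071-9675100 and chr17:32350013-32350042. The match started 7 bases after the start site in ZNF593 and 11 bases after it in ZNF562, and 5 bases before it in ZNF561. The stretches of the KRAB genes ZNF493 and ZNF195, on different chromosomes, were identical at 26 of 30 bases, and those of ZNF561 and ZNF562 at 24 of 30. A match is a description of these letters and not of binding, which was not measured here.

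The listed partners of KRAB proteins comprised 16 corepressor genes, all tested, of which 1 rose and 1 fell, beside 14.2% higher and 15.3% lower among all genes tested. After the correction none was higher and 4 were lower, namely TRIM28, MORC2 (-1.30), HDAC2 (-1.17) and FAM208A (-1.09), and the median went from 0.044 to -0.34. TRIM28, the corepressor that KRAB boxes recruit, was at 615 and 814 FPKM in wild type and at 163 and 171 FPKM in the knockout (log2 fold change -2.08 ± 0.17, adjusted p 0.000551, and -1.48 after the correction). ATF7IP, a partner of SETDB1, was at 3.91 and 3.62 FPKM and then at 8.77 and 8.53 FPKM (1.18 ± 0.12, and 0.17 after the correction). MORC2, an ATPase that acts with the HUSH silencing complex, was at 16.3 and 21.6 FPKM and then at 9.29 and 9.51 FPKM (-0.99 ± 0.15), and PPHLN1, a subunit of that complex, at 47.5 and 49.2 FPKM and then at 70.0 and 74.0 FPKM (0.57 ± 0.10). No relation between TRIM28 and the KRAB genes was tested, since all comparisons share the same 4 libraries. In the other families of zinc finger genes by symbol, 10 of 37 ZBTB genes rose and 1 fell, 3 of 16 ZSCAN genes rose, 1 of 6 ZKSCAN genes rose and 5 of 11 ZFP genes rose, against 14.2% higher and 15.3% lower among all genes tested. After the correction 2 ZBTB genes were higher and 1 lower, 2 ZSCAN genes, 1 ZFP gene and no ZKSCAN gene were higher, against 6.41% and 7.39% of all genes. These symbols include a few antisense or pseudogene rows and the CCCH-type ZFP36 genes.

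Reads of overlapping genes limit single values. Exons of 79 ZNF genes overlap those of another gene, in 54 of them on the opposite strand, and whether the counting used strand was not given in the sources used here. More than 10% of the 50-base stretches were shared with other genes in 18 ZNF genes, most in the pseudogene ZNF252P (100%), in ZNF410 (84.8%) and in ZNF286A (71.9%), and 62 genes shared none.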

How the data were processed

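Polyadenylated RNA of cells labelled HepG2 was sequenced in 2 wild-type and 2 TXNDC9 knockout libraries. The authors mapped reads to hg38 with TopHat2 and an Ensembl annotation and deposited FPKM per gene and library from Cuffdiff of the Cufflinks suite; versions, library normalization and strand are not given in the sources used here. The authors' fold changes, p-values and q-values were not used. The table had 231916 lines, 57979 with values, and its identifiers were put back in register (34949 symbols then matched GENCODE release 44, 1 before). FPKM are not counts and showed no step worth 1 read (at most 4.53% of low genes shared a log2 ratio to 2 decimals), so depth is unknown and no counting intervals are given.

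log2(FPKM + 0.1), a scale that understates changes of low genes, was compared with limma 3.58.1 (R 4.3.3, trended prior, two-sided, Benjamini-Hochberg) over genes with a mean above 1 FPKM, in all 4 libraries, without a replicate block. Samples were grouped by their titles. The correction fitted loess curves (span 0.3) on canonical transcript length and GC content. Tested on simulated data for the comparison of knockout with wild type (13246 genes), the fit recovered 68% of changes of 1.5 and 87% of changes of 3 on the log2 scale, with 3 false calls. The simulated noise was independent and normal, with 100 genes changed at each size and no shift with length, GC content or library sum. This test therefore gives no rate of false calls for shifts of those kinds, which the real libraries show. KRAB boxes and SCAN domains were matched in canonical proteins with pyhmmer 0.12.3 (E-value 0.001), fingers as C2-4C12H3-5H patterns, and 50-base stretches were compared between canonical transcripts. Python 3.11.15, pandas 2.3.3 and matplotlib 3.10.9 were used.

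The genes named are the 8 with the highest mean, the 10 largest rises and falls among called genes with separate groups, 3 genes on each side of the 5 FPKM limit and those of the role lists. The corepressor and family lists are given by counts with at most 4 names. Genes named by their cluster, correction or edge of a range were chosen after their values were seen. The genes and lists were chosen with earlier results of these data known. The alternatives tried were another pseudocount (1 or 0.01), another filter (none, or a mean above 5 FPKM), the replicate block, each library left out, TPM, centring on the median, the correction with and without the block, no trend, an adjusted p under 0.05, and membership above 10 FPKM or above 5 FPKM in both conditions.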

Additional observations from a re-analysis of the deposited data

How the results depend on the processing

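The counts of ZNF genes called, 25 higher and 20 lower, stayed within 1.5 times under either other pseudocount, no filter, the stricter filter, the replicate block (25 and 21), centring, no trend and an adjusted p under 0.05. Over the 4 libraries left out in turn they ranged from 0 to 27 higher and from 0 to 21 lower, with 0 when a knockout library was missing, and the median log2 fold change from 0.047 to 0.14. The counts were 56 and 3 in TPM (median 0.79), 10 and 7 with the length and GC correction (median -0.031), and 9 and 9 with the correction and the replicate block (median -0.031). Centring gave a median of -0.030. With membership above 10 FPKM (62 genes) 8 were higher and the median was -0.41, and with both conditions above 5 FPKM 8 were higher and the median was -0.078. TXNDC9 turned from -0.55 to 0.12 in TPM.

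Same-numbered libraries correlated at -0.090 after removing group means, which gave no sign of pairing. With 2 libraries in a condition this check cannot exclude pairing or a shared batch, which the sources used here do not describe. The block changed no call among the 42 named genes. Of these, 16 lost their call with the length and GC correction and 9 in TPM. Sign changed only in genes not called in the main comparison: with the correction, alone or with the block, ZNF207 (-0.42), ZNF326 (-0.84), ZNF143 (-0.089), ZNF219 (0.043), ZNF592 (-0.20), ZNF687 (0.020) and ZNF335 (0.27); in TPM, ZNF131 (0.32), ZNF346 (0.61), ZNF687 (0.56), ZNF644 (0.38) and ZNF335 (0.66); centred, ZNF143 (-0.030). With a library left out, ZNF143 reached -0.074 (range to 0.30) and ZNF335 ranged from -0.091 to 0.075. With 1 library left in a condition, it is assumed to vary like the other condition, and the cause of the lost calls was not tested.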
